A study of Homo sapiens with 8 samples.

Results

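Solute carriers are the membrane proteins that move sugars, amino acids, nucleosides, vitamins, ions, metals and metabolites across the plasma membrane and across the membranes of organelles. The genes described here are those whose symbol starts with SLC and a digit and that were expressed in HaCaT keratinocytes. SLC1A5, SLC3A2, SLC7A5 and SLC7A11 were set apart. For each gene the probe set with the highest average on the log2 scale stood for it, and the gene was kept if its signal reached 50 on at least 2 of the 6 adenovirus arrays. Of 372 such genes measured, 160 were kept and 212 were not, among 19775 genes in all. The kept genes are called members below. Because the rule used signal levels on these arrays, the levels that let a gene in are given as a description only.

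HaCaT is an immortalised human epidermal keratinocyte line, used here as a single line grown in serum-containing medium. The groups were HRAS G12V (a constitutively active RAS) with TGF-beta3, HRAS N116Y (a dominant negative RAS) with TGF-beta3, LacZ (the control vector) with TGF-beta3, the same 3 vectors without TGF-beta3, p53 siRNA and control siRNA. The 3 vectors were adenoviral, TGF-beta3 was given at 5 ng/ml for 24 h, and the siRNA cells received no TGF-beta3. Each group held 1 array, 8 in all, and the labels do not say whether groups came from separate cultures.

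Carriers are grouped into families by sequence, and most families move related substrates. Some work as uniporters that let a substrate run down its gradient, others couple it to sodium, protons or an exchanged solute, and the SLC25 family sits in the inner mitochondrial membrane. Keratinocytes take up glucose mainly through SLC2A1, and zinc and copper carriers supply metalloenzymes of the epidermis. TGF-beta signals through SMAD transcription factors and arrests keratinocyte growth, while RAS drives the MAP kinase pathway.

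Each array had been scaled by the depositors to a trimmed mean of about 100, and signals are given on that linear scale. The summed signal of the members was 55054 to 61381 on the adenovirus arrays and 60062 to 62110 on the siRNA arrays. The ratio of 3' to 5' actin probe sets was 4.01 with p53 siRNA and 3.68 with control siRNA, against 1.16 to 1.39 on the adenovirus arrays, so a siRNA array was set only against the other siRNA array. HRAS has 1 probe set here. Given with TGF-beta3 and then without it, its signal was 86.1 and 109 in HRAS G12V cells, 58.1 and 67.1 in HRAS N116Y cells, and 287.0 and 316 in LacZ cells. It was thus lower on the arrays of both HRAS vectors, and the sources used here do not say whether it reads the vector's insert, so the vectors are named by their labels throughout. The target of the p53 siRNA is not analysed here. The source field of the 6 adenovirus samples names the TGF-beta state the other way round from their titles and TGF-beta field, and the titles were followed.

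The cells carried keratinocyte markers. KRT14, a basal keratin, was at 10817, 9545 and 9614 with TGF-beta3, against 6984, 6417 and 5953 without it, in the order HRAS G12V, HRAS N116Y and LacZ, which is the order of vectors used below. KRT1, a marker of differentiated layers, was at or under 20.5 on the 8 arrays. The summed signal of 7 measured keratinocyte markers was 20958 to 25093 with TGF-beta3 and 13989 to 15319 without it. In the fit described below, 4 of the 6 tested rose, LAMB3 the most, with a log2 change of 1.92. KRT5 and KRT10 passed in neither direction, with log2 changes of 0.005 and 0.16. That of 8 fibroblast markers was 230.0 to 424 with TGF-beta3 and 86.8 to 185 without it. COL1A1 was at 288, 253 and 165 with TGF-beta3, against 39.7, 50.8 and 45 without it, while PDGFRA, PDGFRB, LUM and DCN stayed at or under 21.7. COL3A1, another collagen of the same list, was at 144 and 107 on the HRAS N116Y arrays with and without TGF-beta3, against 4.2 to 17.8 on the other 4 adenovirus arrays. The 6 melanocyte, 5 leukocyte and 5 endothelial markers measured summed to at most 156, 95.5 and 69.3 on any array. The part of these markers in the results below was not tested. In cells measured in bulk, fewer cells of a type and less RNA per cell cannot be told apart.

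The 160 members came from 46 SLC families, and 126 of them reached a signal of 50 on all 6 adenovirus arrays. Of the members, 156 are protein-coding genes. The other 4 are the noncoding RNAs SLC12A2-DT, SLC25A25-AS1 and SLC9A3-OT1 and the pseudogene SLC71A3P. SLC2A4RG, SLC4A1AP and SLC7A6OS are coding genes named after a transporter gene. That leaves 153 members counted here, by their family, as coding for a carrier. Signals cannot be ranked between probe sets, since each binds with its own strength, but the bright ones can be listed. SLC25A3, the mitochondrial phosphate carrier, ran at 4831 to 6953 over the 6 arrays and SLC25A5, an ADP/ATP carrier, at 4637 to 6791. SLC38A2, a sodium-coupled importer of small neutral amino acids, ran at 2890.0 to 4634, SLC39A6, a zinc importer, at 1693 to 2281, and SLC7A1, an importer of arginine and lysine, at 1273 to 2236. SLC25A24, SLC38A1, SLC20A1, SLC44A1 and SLC71A2 were the other members among the brightest 10.

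The threshold of 50 let in some dim genes. By their second-highest signal on the 6 arrays, SLC12A2-DT (50.4), SLC60A2 (51.2) and SLC25A20 (51.6) lay just inside, and SLC75A1 and SLC27A1 (49.99 each) and SLC24A1 (47.3) just outside. At 50 or above only on TGF-beta3 arrays were 4 members, among them SLC2A6, and 6 only on untreated arrays, among them SLC16A9, SLC25A10 and SLC27A5. SLC6A2, SLC39A2 and SLC25A25-AS1 reached 50 only on the HRAS N116Y arrays. For these 13 members the rule itself favours a difference in that direction.

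In the fit over the 6 adenovirus arrays, 48 of the 160 members differed between TGF-beta3 and untreated cells, led by a rise of the glucose transporter SLC2A12 and falls of the lactate carrier SLC16A7 and the glutamate carrier SLC1A3. The question was which carriers differ between TGF-beta3 and untreated cells whatever the vector. With limma at an adjusted p under 0.05, 25 members rose (15.6%) and 23 fell (14.4%), and 112 passed in neither direction. Over all 8982 genes tested, 16.3% rose and 17.4% fell. The members' shares thus lay close to, and slightly under, those of all genes, and the median log2 change was 0.00 for members and -0.01 for all genes. The counts by class below are descriptions to read beside these shares. Classes differ in size and were not tested as sets. The direction was the same in all 3 vectors for each of the 25 and each of the 23. The calls were made from these same ratios, and a call favours members whose vectors agree. This agreement is thus a description and not further support. Mean changes reached 2-fold in 6 of the risers and 6 of the fallers. Of the calls, 1 riser (SLC2A6) and 3 fallers (SLC16A9, SLC25A10 and SLC27A5) reached 50 in only 1 TGF-beta3 state. The filter favoured those calls. Of all members, 32 had their 3 TGF-beta3 signals above the 3 untreated ones (20%, against 19.4% of all genes) and 30 had them below (18.8%, against 22.2%). With 3 arrays against 3, an exact permutation test of 1 gene cannot go below p = 0.1. The fit has 1 array a group, so its 2 residual degrees of freedom hold the interaction of vector and TGF-beta3 as well as noise. Leaving out the LacZ arrays gave 14 risers and 15 fallers, and leaving out the HRAS G12V arrays 13 of each.

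**Figure D1:**
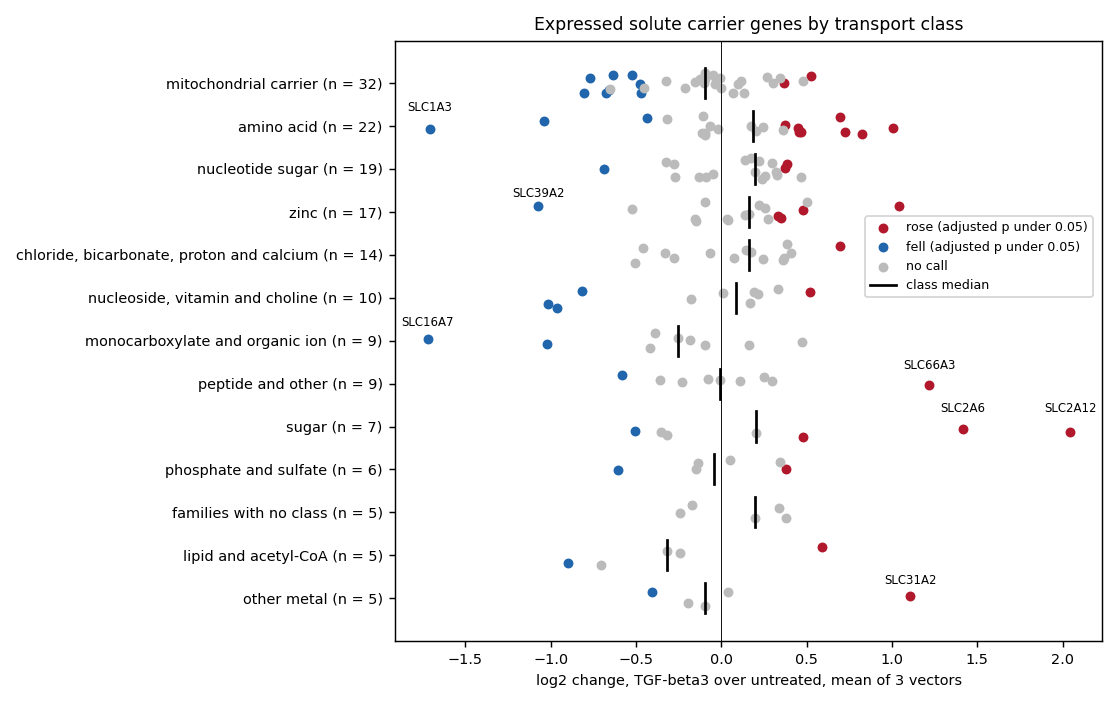
Log2 change with TGF-beta3 over untreated (horizontal axis, mean over the 3 vectors) of the 160 members, 1 point a gene, by transport class (rows, with the number of members). Red points rose and blue points fell at a limma adjusted p under 0.05, grey points passed in neither direction and the bar is the class median; the medians lie between -0.32 and 0.20, and SLC2A12 at 2.05 and SLC16A7 at -1.72 mark the ends.

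Of the 4 promoters shown here, those of SLC2A12, SLC1A3 and SLC20A1 belong to members that changed both with TGF-beta3 and between vectors, and SLC2A12 and SLC29A3 hold an AP-1 motif. AP-1 is a transcription factor of the JUN and FOS families that acts downstream of RAS and MAP kinases. Each line gives the 250 bases before the annotated transcription start from RefSeq (build GRCh38.p14), read 5′ to 3′ on the gene's strand. Capitals mark TGACTCA, the AP-1 consensus, and sequences without capitals hold no match. The intervals are chr6:134052625-134052874 (minus strand) for SLC2A12, chr10:71319009-71319258 (plus strand) for SLC29A3, chr5:36596338-36596587 (plus strand) for SLC1A3 and chr2:112645689-112645938 (plus strand) for SLC20A1.
SLC2A12: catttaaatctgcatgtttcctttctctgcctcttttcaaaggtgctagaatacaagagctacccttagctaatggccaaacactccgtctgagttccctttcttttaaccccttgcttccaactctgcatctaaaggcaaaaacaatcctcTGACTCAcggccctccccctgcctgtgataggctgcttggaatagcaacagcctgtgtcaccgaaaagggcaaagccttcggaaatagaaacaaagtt
SLC29A3: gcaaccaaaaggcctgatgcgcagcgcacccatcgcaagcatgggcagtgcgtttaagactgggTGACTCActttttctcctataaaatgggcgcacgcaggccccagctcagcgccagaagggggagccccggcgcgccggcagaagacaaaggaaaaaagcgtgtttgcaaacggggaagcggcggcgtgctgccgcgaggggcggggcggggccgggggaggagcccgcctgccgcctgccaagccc
SLC1A3: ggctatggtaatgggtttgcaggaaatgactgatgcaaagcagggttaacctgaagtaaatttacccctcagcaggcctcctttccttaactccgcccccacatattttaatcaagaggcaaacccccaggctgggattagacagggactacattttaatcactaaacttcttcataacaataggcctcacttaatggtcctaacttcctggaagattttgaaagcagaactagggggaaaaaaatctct
SLC20A1: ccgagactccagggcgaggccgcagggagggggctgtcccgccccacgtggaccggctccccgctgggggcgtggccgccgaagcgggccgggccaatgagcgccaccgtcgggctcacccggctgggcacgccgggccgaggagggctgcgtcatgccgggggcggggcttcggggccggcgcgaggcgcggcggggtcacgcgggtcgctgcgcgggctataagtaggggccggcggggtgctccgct

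The match starts at position -98 from the start site in SLC2A12, the member with the largest rise, and at -186 in SLC29A3, a member that fell. The share of G and C differed widely between these windows, at 46% in SLC2A12, 66.4% in SLC29A3, 43.2% in SLC1A3 and 80.0% in SLC20A1. A promoter was found for 136 of the 160 members. Searched on both strands, TGACTCA stood in 4 of the 136 (2.94%), which are SLC2A12, SLC29A3, SLC50A1 and SLC38A1, against 4.16% of 27305 promoters of the same length. The core of the SMAD-binding CAGA box, CAGACA, stood in 10 (7.35%, against 13.6% of all), among them SLC38A5 and SLC7A6, which rose, and SLC35G1, which fell. The other 7 passed in neither direction. The E2F motif TTTCCCGC stood in 5 (3.68%, against 1.42% of all), among them the mitochondrial or peroxisomal carriers SLC25A11 and SLC25A17, which fell, and 3 that passed in neither direction. The printed windows hold no match to CAGACA or TTTCCCGC, so no matches overlap in them, and a match is a description of letters and not of binding.

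Glucose carriers held the largest rise. The class of families SLC2 and SLC5 held 7 members, 6 of which code for a carrier, and 3 rose and 1 fell (16.3% and 17.4% of all genes). SLC2A12 encodes GLUT12, a glucose transporter, and its signal was 176, 687 and 257 with TGF-beta3, against 42.3, 125 and 83.7 without it. Every TGF-beta3 signal lay above every untreated one, and both HRAS N116Y signals were the highest of their state. It rose 4.13-fold (log2 change 2.05 ± 0.17 SE, limma adjusted p = 1.86e-05). SLC2A6 encodes GLUT6, a member of the same family found on lysosomal membranes, with signals of 58.8, 109 and 77.1 with TGF-beta3, against 28.2, 30.9 and 29.9 without it. Its untreated signals were all under 50 and close together, and it rose 2.67-fold (log2 change 1.42 ± 0.23 SE, limma adjusted p = 0.00081). SLC2A6 was a member only through its TGF-beta3 signals. The filter thus favoured this rise, and the p of SLC2A6 is not support for it. SLC2A1 encodes GLUT1, the main glucose transporter of keratinocytes, with signals of 249.5, 219 and 232 with TGF-beta3, against 179.5, 135 and 194 without it. The groups did not overlap, and it rose 1.39-fold (log2 change 0.48 ± 0.14 SE, limma adjusted p = 0.0229). This call was lost with the mean of its probe sets, with no vector term and without the HRAS G12V arrays. SLC5A6, the 1 faller of this class, is a sodium-dependent carrier of biotin and pantothenate rather than of sugar, and fell by 0.50 on the log2 scale (adjusted p = 0.0345).

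Amino acid carriers were the class with the most risers by count. Of 22 members, 21 of which code for a carrier, 8 rose and 3 fell, with a median log2 change of 0.19. Of all genes tested, 16.3% rose and 17.4% fell. Several risers are known from lysosomes. SLC36A1, a proton-coupled exporter of small amino acids from lysosomes, was at 163, 165 and 129 with TGF-beta3, against 80.3, 63.5 and 83.9 without it, with no overlap (log2 change 1.01 ± 0.18 SE, limma adjusted p = 0.00174). SLC38A7, which carries glutamine out of lysosomes, was at 64.2, 94.5 and 80.3 with TGF-beta3, against 35.3, 55.9 and 44.5 without it (log2 change 0.82 ± 0.19 SE, limma adjusted p = 0.00708), and its TGF-beta3 signals all lay above the untreated ones. SLC38A9, the lysosomal arginine sensor of the mTORC1 pathway, rose by a log2 change of 0.45. At the cell surface, SLC7A8, a light chain that exchanges neutral amino acids when paired with SLC3A2, was at 81.5, 80.0 and 74.8 with TGF-beta3, against 51.6, 46.4 and 45 without it (log2 change 0.73 ± 0.19 SE, limma adjusted p = 0.0125), and SLC38A5, a glutamine and serine carrier, at 678, 699 and 824 with TGF-beta3, against 411, 515 and 434 without it (log2 change 0.70 ± 0.12 SE, limma adjusted p = 0.00155). Neither overlapped between the states. The other risers were SLC7A6, SLC1A4 and SLC38A2, with log2 changes of 0.47, 0.46 and 0.37.

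The 3 fallers of this class carry other or more special substrates. SLC1A3 encodes a sodium-coupled importer of glutamate and aspartate, and its signal was 81.6, 301 and 98.1 with TGF-beta3, against 315, 726 and 368 without it. Within each vector the TGF-beta3 signal was well under the untreated one, and the highest TGF-beta3 signal, on the HRAS N116Y array, stayed under the lowest untreated one. It fell 3.27-fold (log2 change -1.71 ± 0.16 SE, limma adjusted p = 2.69e-05). SLC43A3, a purine nucleobase carrier placed here by its family, was at 418, 368 and 448 with TGF-beta3, against 743, 868 and 928 without it, without overlap, and fell 2.05-fold (log2 change -1.04 ± 0.12 SE, limma adjusted p = 0.000102). SLC6A8, the creatine importer, fell by 0.43 on the log2 scale (adjusted p = 0.025).

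**Figure D2:**
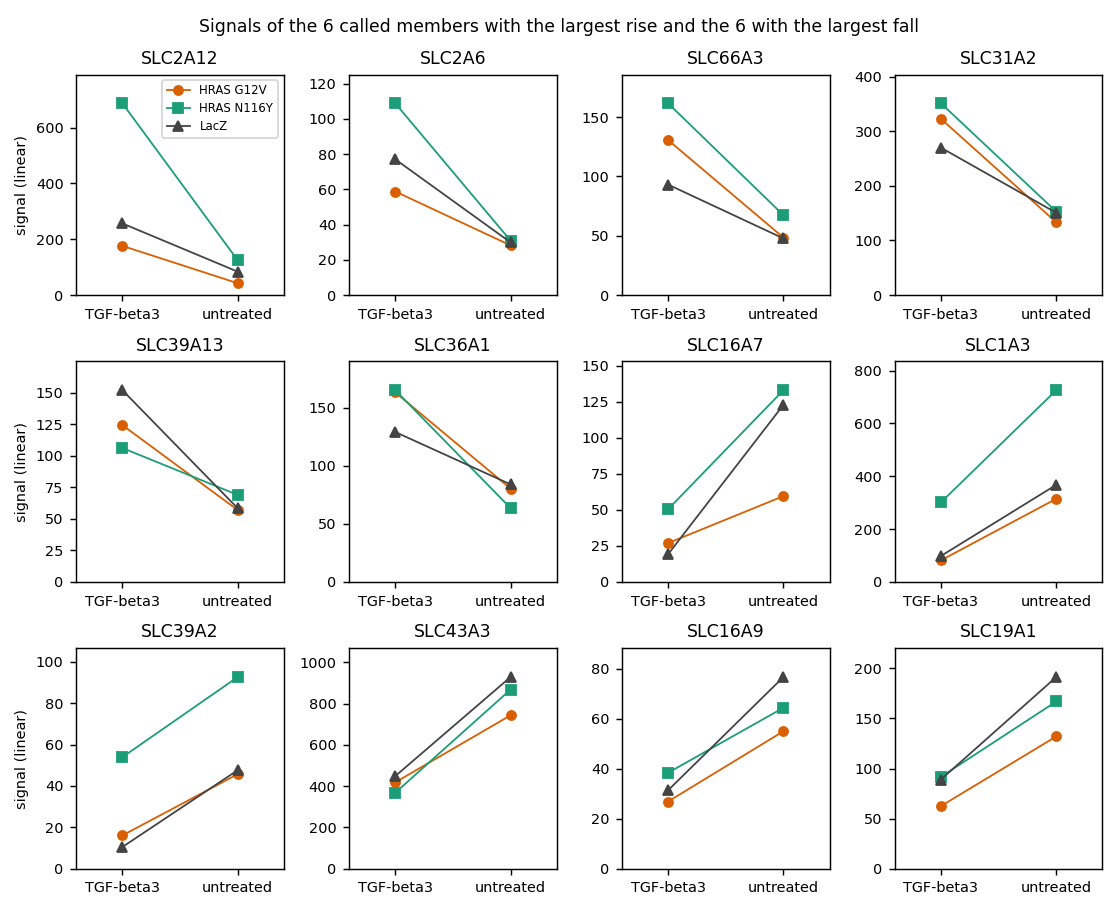
Signal on a linear axis from 0 with TGF-beta3 (left in each panel) and untreated (right) for the 6 called members with the largest rise and the 6 with the largest fall, 1 point an array and 1 line a vector. Each line slopes the same way within a panel, which the calling of these members favours. The TGF-beta3 signals of SLC2A12 run from 176 to 687 and its untreated ones from 42.3 to 125, while SLC39A2 overlaps because its HRAS N116Y signals are high in both states.

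Zinc and copper carriers moved in both directions. Of 17 zinc carriers of the families SLC30 and SLC39, 4 rose and 1 fell (16.3% and 17.4% of all genes). SLC39A13 encodes ZIP13, which releases zinc from vesicles of the secretory pathway and is mutated in a connective tissue disorder. Its signal was 124, 106 and 152 with TGF-beta3, against 56.9, 68.9 and 58.3 without it, without overlap, and it rose 2.06-fold (log2 change 1.04 ± 0.19 SE, limma adjusted p = 0.00192). SLC30A1, the zinc exporter of the plasma membrane, was at 945, 1128 and 1197 with TGF-beta3, against 740.2, 780.3 and 816 without it. The 3 TGF-beta3 signals were the highest, and it rose by less (log2 change 0.48 ± 0.11 SE, limma adjusted p = 0.00598). SLC39A14, an importer of zinc, iron and manganese, and SLC30A7, a zinc carrier of the Golgi, had log2 changes of 0.35 and 0.33 (adjusted p = 0.0327 and 0.0395). SLC39A2, a zinc importer tied to keratinocyte differentiation, was the faller, at 16.1, 53.9 and 10.5 with TGF-beta3, against 45.7, 92.6 and 47.6 without it. Its groups overlapped because of the HRAS N116Y arrays, although the TGF-beta3 signal was lower within each vector (log2 change -1.07 ± 0.23 SE, limma adjusted p = 0.00453). Its signals under 20 were raised to the floor before the fit. SLC39A6, another zinc importer, had a log2 change of 0.27 and passed in neither direction (adjusted p = 0.0787).

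The 2 copper carriers changed in opposite directions. SLC31A2, a copper carrier of endosomes and lysosomes, was at 323, 351 and 269.9 with TGF-beta3, against 133, 153 and 151 without it. All TGF-beta3 signals were well above all untreated ones, and it rose 2.15-fold (log2 change 1.11 ± 0.14 SE, limma adjusted p = 0.000187). SLC31A1, the copper importer of the plasma membrane, was at 371, 499 and 581 with TGF-beta3, against 564, 651 and 684 without it. The states overlapped across vectors, while within each vector the TGF-beta3 signal was the lower (log2 change -0.41 ± 0.12 SE, limma adjusted p = 0.0206). The iron carrier SLC11A2 of the same class of 5 passed in neither direction, with a log2 change of -0.20.

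Among carriers of phosphate, sulfate and inorganic ions few members passed. The class named for chloride, bicarbonate, protons and calcium held 14 members by symbol, 11 of which code for a carrier. SLC26A2 alone passed, and it rose. Of all genes tested, 16.3% rose and 17.4% fell. SLC26A2 imports sulfate for the sulfation of proteoglycans, and its signal was 212, 257 and 205 with TGF-beta3, against 134, 158 and 125 without it, with similar ratios in the 3 vectors (log2 change 0.69 ± 0.13 SE, limma adjusted p = 0.00256). Of 6 phosphate carriers, SLC20A1 rose and SLC37A4 fell. SLC20A1, a sodium-phosphate cotransporter, was at 2249, 647 and 1636 with TGF-beta3, against 1373, 618 and 1276 without it. The HRAS N116Y array with TGF-beta3 lay below both other untreated arrays, and the rise was small (log2 change 0.38 ± 0.13 SE, limma adjusted p = 0.0449). SLC37A4, the glucose-6-phosphate carrier of the endoplasmic reticulum, fell by 0.60 on the log2 scale (adjusted p = 0.0326).

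Nucleoside, vitamin and monocarboxylate carriers form small classes, whose counts are a description only. Of 10 carriers of nucleosides, vitamins and choline, 3 fell and 1 rose (17.4% and 16.3% of all genes). SLC19A1, the reduced folate carrier, was at 62.6, 91.8 and 89.1 with TGF-beta3, against 132, 167 and 191 without it, without overlap, and fell 2.02-fold (log2 change -1.02 ± 0.15 SE, limma adjusted p = 0.000614). SLC29A1, the equilibrative nucleoside transporter of the plasma membrane, was at 168, 128 and 167 with TGF-beta3, against 261, 283 and 265 without it (log2 change -0.82 ± 0.15 SE, limma adjusted p = 0.00174). SLC29A3, its lysosomal relative, was at 13.3, 54.2 and 25 with TGF-beta3, against 56.8, 79.9 and 44.3 without it (log2 change -0.96 ± 0.25 SE, limma adjusted p = 0.0121). The 13.3 was set to the floor of 20 before the fit, which makes the fall smaller, and the states of SLC29A3 overlapped. Its call was lost with a floor of 50, with no vector term and without the HRAS G12V arrays. SLC44A2, a choline carrier, was the riser, with signals of 501, 645 and 570.2 with TGF-beta3, against 339, 467 and 397 without it (log2 change 0.52 ± 0.11 SE, limma adjusted p = 0.0045).

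Of 9 carriers of monocarboxylates and organic ions, 2 fell (17.4% of all genes) and the other 7 passed in neither direction. SLC16A7 encodes MCT2, a carrier of lactate and pyruvate, and was at 26.9, 50.4 and 19.2 with TGF-beta3, against 59.5, 133 and 123 without it. The TGF-beta3 signal of LacZ was under the floor, and the 3 TGF-beta3 signals lay below the 3 untreated ones (log2 change -1.72 ± 0.28 SE, limma adjusted p = 0.00087). SLC16A9, of the same family, was at 26.9, 38.4 and 31.4 with TGF-beta3, against 55, 64.4 and 76.7 without it, and only untreated arrays reached 50 (log2 change -1.02 ± 0.22 SE, limma adjusted p = 0.00486). The filter thus favoured this fall, and the p of SLC16A9 is not support for it. SLC22A4, an ergothioneine carrier, had a log2 change of 0.47 and passed in neither direction (adjusted p = 0.0576).

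Mitochondrial carriers of the family SLC25 were the largest class, and 8 of its 32 members (31 code for a carrier) fell while 2 rose. Of all genes tested, 17.4% fell and 16.3% rose. The median log2 change of the class was -0.10. The fallers with the largest changes were SLC25A10 (the dicarboxylate carrier), SLC25A40, SLC25A37 and SLC25A28 (mitoferrins, which import iron), and SLC25A15 (the ornithine carrier). SLC25A10 was at 33.3, 41.7 and 30.5 with TGF-beta3, against 57.4, 67.9 and 57.7 without it, without overlap (log2 change -0.80 ± 0.21 SE, limma adjusted p = 0.0132). It was a member only through its untreated signals, so the filter favoured this fall and its p is not support for it. SLC25A40 was at 184, 244 and 216 with TGF-beta3, against 301, 406 and 394 without it (log2 change -0.77 ± 0.12 SE, limma adjusted p = 0.000748). In both, the 3 TGF-beta3 signals were the lowest. SLC25A15 was at 193, 184 and 224 with TGF-beta3, against 317, 277 and 355 without it, again without overlap (log2 change -0.66 ± 0.12 SE, limma adjusted p = 0.00217). SLC25A37 was at 89.5, 124 and 83.1 with TGF-beta3, against 174, 139.8 and 155 without it, and SLC25A28 at 73.4, 101 and 65.2 with TGF-beta3, against 125, 135 and 108 without it. Both mitoferrins fell, by 0.68 and 0.64 on the log2 scale (adjusted p = 0.0156 and 0.0128), and their changes were smallest with HRAS N116Y.

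The remaining mitochondrial fallers were SLC25A11 (the oxoglutarate carrier), SLC25A12 (an aspartate and glutamate exchanger) and SLC25A17 (a peroxisomal member of the family), with log2 changes of -0.52, -0.47 and -0.47. The risers were SLC25A43, at 696, 561 and 518 with TGF-beta3, against 444, 365 and 421 without it (log2 change 0.52 ± 0.12 SE, limma adjusted p = 0.00653), and SLC25A46, an outer-membrane protein that shapes mitochondria, with a log2 change of 0.37. SLC25A3 and SLC25A5, whose signals were far brighter than the floor, passed in neither direction, with log2 changes of 0.27 and -0.05 (adjusted p = 0.127 and 0.806).

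In the secretory pathway, 2 of 19 members of the nucleotide sugar family SLC35 rose and 1 fell (16.3% and 17.4% of all genes). SLC35B3, which brings the sulfate donor PAPS into the Golgi, and SLC35B1, which brings ATP into the endoplasmic reticulum, had log2 changes of 0.39 and 0.37 (adjusted p = 0.0309 and 0.0489). SLC35G1 was the faller, at 52.5, 55.8 and 46.9 with TGF-beta3, against 109, 64.8 and 81.6 without it (log2 change -0.69 ± 0.21 SE, limma adjusted p = 0.0279), and its untreated signals were all higher. Among 5 carriers of lipids and acetyl-CoA, SLC33A1, which brings acetyl-CoA into the endoplasmic reticulum, rose, at 369, 274 and 332 with TGF-beta3, against 215, 212 and 216 without it (log2 change 0.59 ± 0.13 SE, limma adjusted p = 0.00593). SLC27A5, a fatty acid and bile acid CoA ligase of the transport protein family, fell, at 37.7, 40.4 and 46.2 with TGF-beta3, against 77.1, 76.2 and 77.7 without it (log2 change -0.90 ± 0.20 SE, limma adjusted p = 0.00527), and its TGF-beta3 signals were all under 50. SLC27A5 was thus a member only through its untreated signals. The filter favoured this fall, and its p is not support for it. Of 9 other carriers, SLC66A3 rose 2.33-fold, at 131, 162 and 93.1 with TGF-beta3, against 48.4, 67.3 and 47.7 without it (log2 change 1.22 ± 0.18 SE, limma adjusted p = 0.000477), and SLC48A1, a heme carrier, fell by 0.58 on the log2 scale (adjusted p = 0.0363). The 5 members of families outside these classes passed in neither direction.

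Other probe sets of the same genes were mostly of the same sign. Of 39 further probe sets at 50 on at least 2 arrays that belong to 29 of the 48 changed members, 37 had a mean change of the same sign and 2 the opposite one. The second probe set of SLC2A12 had a log2 change of 2.10 (2.05 for the one used), and that of SLC43A3 -1.37 (-1.04 for the one used). The opposite signs came from a second probe set of SLC30A1, at -0.03, and one of SLC35B3, at -0.05.

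Genes that work with solute carriers, and other transporters, were read from the same fit. Of 19 tested genes for partner chains, ion pumps and their regulators, 4 rose and 1 fell (16.3% and 17.4% of all genes). SGK1, a kinase that raises the surface level of many carriers, was at 282, 327 and 269.7 with TGF-beta3, against 78.1, 127 and 103 without it (log2 change 1.53, limma adjusted p = 4.14e-05). EMB, a partner chain of monocarboxylate carriers, rose by 0.80 on the log2 scale, while BSG, the other such chain, had a change of 0.00 (adjusted p = 0.999). ATP6V0A1 and FXYD5 rose by 0.93 and 0.50, and STK39, a kinase that activates SLC12A2, fell by 0.54. Of 13 tested genes of the ABC family, not all of which code for a transporter, 2 rose and 5 fell (16.3% and 17.4% of all genes). ABCG2, a drug exporter, was among the fallers, at -0.82. Of 3 SLCO organic anion carriers SLCO4A1 fell, with a log2 change of -1.39. The mitochondrial pyruvate carrier genes MPC1 and MPC2 fell by 0.46 and 0.52. Of the 4 SLC genes set apart, SLC1A5 fell by 0.47 and the other 3 passed in neither direction.

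Few members passed between the vectors. HRAS N116Y was set against LacZ to ask what blocking RAS does with and without TGF-beta3, and 4 members were higher and 1 lower of 160 (2.5% and 0.625%), against 1.58% and 0.846% of all genes tested. With the arrays given as TGF-beta3 and then untreated, SLC6A2, the noradrenaline transporter, was at 166 and 90.4 on the HRAS N116Y arrays, against 27.5 and 46.7 on the LacZ arrays (log2 change 1.78 ± 0.35 SE, limma adjusted p = 0.0283). SLC6A2 entered the members only through its HRAS N116Y signals, so the filter favoured this difference and its p is not support for it. It is 1 of the 4 counted as higher. SLC1A3 was at 301 and 726 on the HRAS N116Y arrays, against 98.1 and 368 on the LacZ arrays (log2 change 1.30 ± 0.19 SE, limma adjusted p = 0.0057). SLC2A12 was at 687 and 125 on the HRAS N116Y arrays, against 257 and 83.7 on the LacZ arrays (log2 change 1.00 ± 0.21 SE, limma adjusted p = 0.0376). All 3 were higher with HRAS N116Y in both TGF-beta3 states, although SLC1A3 fell and SLC2A12 rose with TGF-beta3. SLC12A2, the sodium, potassium and chloride cotransporter, was at 676 and 494 on the HRAS N116Y arrays, against 387 and 354 on the LacZ arrays (log2 change 0.64 ± 0.15 SE, limma adjusted p = 0.049). SLC20A1 was lower, at 647 and 618 on the HRAS N116Y arrays, against 1636 and 1276 on the LacZ arrays (log2 change -1.19 ± 0.16 SE, limma adjusted p = 0.00346), and the HRAS N116Y signals were about level between the TGF-beta3 states. SLC39A2 had a change of 1.20 and missed the threshold (adjusted p = 0.0529). It too entered the members only through its HRAS N116Y signals, so the filter favoured this difference. TXNIP, which drives glucose transporters into the cell, was 1.66 higher on the log2 scale (limma adjusted p = 0.00123). Of the 8 fibroblast markers, 2 were bright enough to test, and COL3A1 was higher with HRAS N116Y than with LacZ (log2 change 2.64 from signals raised to the floor, limma adjusted p = 0.00123). COL3A1 was tested only because of its HRAS N116Y signals, so its p is not support for this difference. The 8 summed to 424 and 185 on the HRAS N116Y arrays, against 230.0 and 95 on the LacZ arrays, and their part in the calls was not tested.

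The 5 calls rest on the arrays as labelled, and SLC2A12, SLC12A2 and SLC6A2 lie near the threshold: leaving out the HRAS G12V arrays gave 7 members higher and 1 lower, and quantile normalization 1 and 1. SLC1A3 kept its call with quantile normalization but lost it with the mean of its probe sets. A second probe set of SLC20A1 had a log2 change of -1.23, one of SLC12A2 0.54 and one of SLC2A12 0.38.

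**Figure D3:**
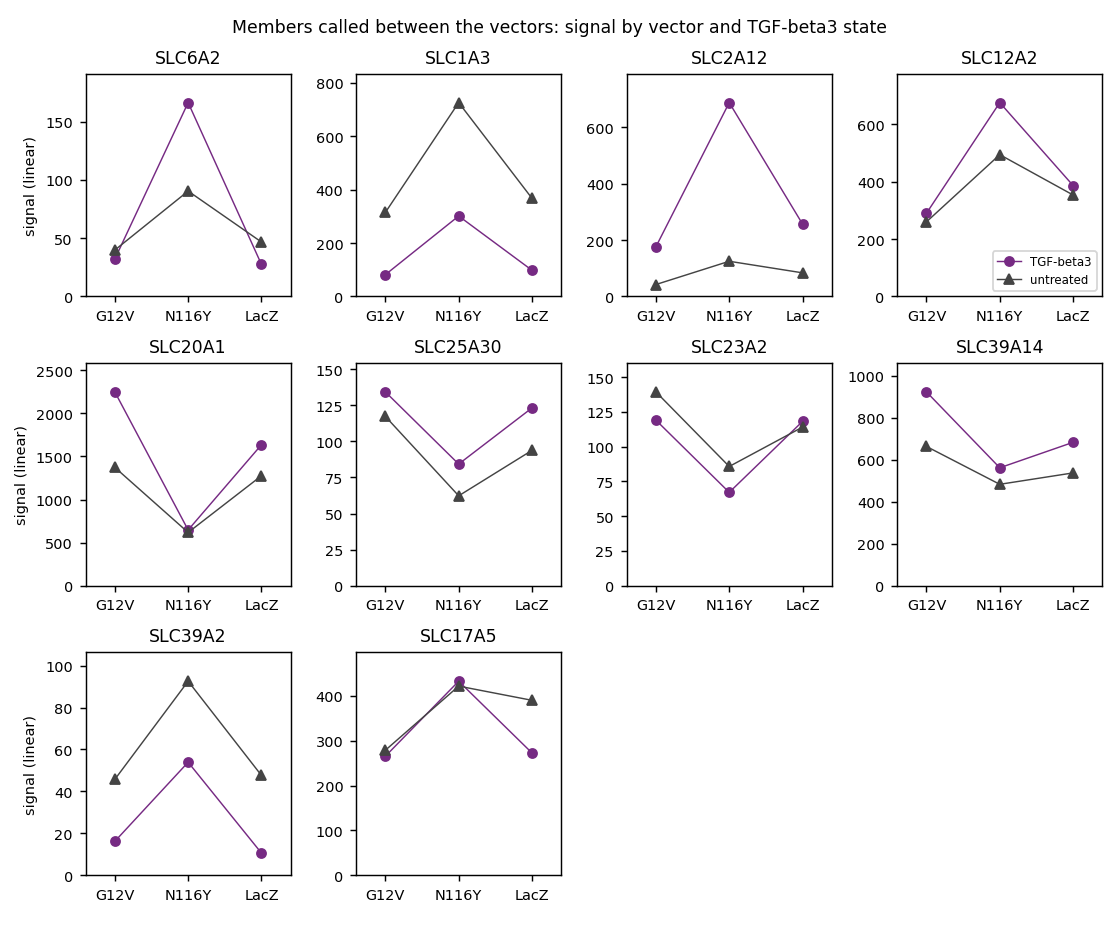
Signal on a linear axis from 0 with HRAS G12V, HRAS N116Y and LacZ (left to right in each panel) for the 10 members called in a comparison between vectors, 1 point an array, with circles for TGF-beta3 and triangles for untreated. Within each TGF-beta3 state, the HRAS N116Y array is the highest of the 3 for SLC6A2, SLC1A3, SLC2A12, SLC12A2, SLC39A2 and SLC17A5. It is the lowest for SLC20A1, SLC25A30, SLC23A2 and SLC39A14, with SLC20A1 at 647 and 618.

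Active against dominant negative HRAS gave 4 members higher and 6 lower (2.5% and 3.75% of members, against 2.58% and 3.8% of all genes). This comparison shares the HRAS N116Y arrays with the one above, so its values are set beside it and not counted as further evidence. COL3A1 was lower with HRAS G12V (log2 change -2.64 from signals raised to the floor, limma adjusted p = 0.000512), and the fibroblast sum was 321 and 86.8 on the HRAS G12V arrays, against 424 and 185 on the HRAS N116Y arrays. COL3A1 was tested only through its HRAS N116Y signals, so its p is not support here either. KRT5, a basal keratin, was also lower with HRAS G12V (log2 change -0.63, limma adjusted p = 0.0217), and the part of both in the calls was not tested. With HRAS G12V, SLC20A1 was at 2249 and 1373 on the HRAS G12V arrays, against 647 and 618 on the HRAS N116Y arrays (log2 change 1.48 ± 0.16 SE, limma adjusted p = 0.000512). SLC25A30, a mitochondrial carrier, was at 134 and 117 on the HRAS G12V arrays, against 84.3 and 62.3 on the HRAS N116Y arrays (log2 change 0.79 ± 0.20 SE, limma adjusted p = 0.04). In both, the pairs did not overlap. SLC23A2, which imports vitamin C, was at 119 and 139 on the HRAS G12V arrays, against 67.1 and 85.7 on the HRAS N116Y arrays (log2 change 0.76 ± 0.20 SE, limma adjusted p = 0.0485). SLC39A14 was at 923 and 663 on the HRAS G12V arrays, against 562 and 483 on the HRAS N116Y arrays (log2 change 0.59 ± 0.14 SE, limma adjusted p = 0.0293), with the higher values on the HRAS G12V arrays.

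The members lower with HRAS G12V than with HRAS N116Y were SLC6A2, SLC2A12, SLC1A3, SLC39A2, SLC12A2 and SLC17A5. SLC2A12 was at 176 and 42.3 on the HRAS G12V arrays, against 687 and 125 on the HRAS N116Y arrays (log2 change -1.76 ± 0.21 SE, limma adjusted p = 0.000876), and SLC1A3 at 81.6 and 315 on the HRAS G12V arrays, against 301 and 726 on the HRAS N116Y arrays (log2 change -1.55 ± 0.19 SE, limma adjusted p = 0.000981). The 2 vectors overlapped for both genes only across TGF-beta3 states, and within a state HRAS G12V was lower. SLC6A2 was at 32.1 and 39.8 on the HRAS G12V arrays, against 166 and 90.4 on the HRAS N116Y arrays (log2 change -1.78 ± 0.35 SE, limma adjusted p = 0.0143), and SLC12A2 at 290.0 and 260.0 on the HRAS G12V arrays, against 676 and 494 on the HRAS N116Y arrays (log2 change -1.07 ± 0.15 SE, limma adjusted p = 0.00185). SLC39A2 was at 16.1 and 45.7 on the HRAS G12V arrays, against 53.9 and 92.6 on the HRAS N116Y arrays (log2 change -1.22 ± 0.28 SE, limma adjusted p = 0.0275). Like SLC6A2, it was a member only through HRAS N116Y. The filter thus favoured these differences, and the p-values of both genes are not support for them. Both are counted among the lower members. SLC17A5, which exports sialic acid from lysosomes, was at 265 and 279 on the HRAS G12V arrays, against 433 and 422 on the HRAS N116Y arrays (log2 change -0.65 ± 0.17 SE, limma adjusted p = 0.0444), with no overlap.

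HRAS G12V against LacZ gave 0 members higher and 0 lower with limma, against 0.0% and 0.0445% of all genes. At an unadjusted p under 0.05 there were 12 of 160 members (7.5%), against 574 of 8982 genes (6.39%). Those with the smallest p were SLC2A12, at 176 and 42.3 on the HRAS G12V arrays, against 257 and 83.7 on the LacZ arrays (log2 change -0.76 ± 0.21 SE, limma adjusted p = 0.562), SLC22A4, at 98 and 57 on the HRAS G12V arrays, against 148 and 106 on the LacZ arrays (log2 change -0.74 ± 0.21 SE, limma adjusted p = 0.572), and SLC31A1, at 371 and 564 on the HRAS G12V arrays, against 581 and 684 on the LacZ arrays (log2 change -0.46 ± 0.14 SE, limma adjusted p = 0.638). In all 3 the HRAS G12V signal was the lower one in both TGF-beta3 states. Changes of all members lay between -0.76 and 0.55. Leaving out the HRAS N116Y arrays gave 1 member lower.

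The response to TGF-beta3 could be set side by side for the 3 vectors, which share no array. Across the 160 members, the log2 ratio of TGF-beta3 to untreated correlated between HRAS G12V and LacZ with a Pearson r of 0.818, between HRAS N116Y and LacZ with 0.634, and between HRAS G12V and HRAS N116Y with 0.629. These describe points that are genes of the same arrays and have no p. At least 2-fold higher with TGF-beta3 were 7 of 152 members with HRAS G12V (4.61%, background 5.53%), 5 of 156 with HRAS N116Y (3.21%, background 4.9%) and 3 of 153 with LacZ (1.96%, background 4.22%). At least 2-fold lower were 11 with HRAS G12V (7.24%, background 4.54%), 4 with HRAS N116Y (2.56%, background 4.94%) and 6 with LacZ (3.92%, background 4.4%). Background is the share of all genes with a signal of 50 on 1 array of the pair. SLC2A12 and SLC2A6 were at least 2-fold higher in all 3 vectors, and SLC1A3 and SLC16A7 at least 2-fold lower in all 3. SLC2A6 reached 50 only on TGF-beta3 arrays, so the filter favoured its rise. With 1 array to 1 array there is no test of these pairs or of their differences.

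Differences of response of at least 1 on the log2 scale were few. For HRAS G12V minus LacZ, 2 members were higher and 2 lower (1.27% each, against 0.715% and 0.583% of all genes). SLC35H1 had log2 ratios of 1.03 in HRAS G12V cells, 0.53 in HRAS N116Y cells and -0.15 in LacZ cells, a difference of 1.18 from LacZ. SLC16A7, at -1.15 in HRAS G12V cells, -1.40 in HRAS N116Y cells and -2.62 in LacZ cells, differed more, but 1 of its LacZ signals was under the floor. SLC34A3, a kidney-type sodium-phosphate cotransporter, had ratios of -1.18 in HRAS G12V cells, 0.58 in HRAS N116Y cells and 0.15 in LacZ cells, and SLC37A2 had -0.90 in HRAS G12V cells, 0.30 in HRAS N116Y cells and 0.20 in LacZ cells. For both, the untreated HRAS G12V signal was the highest of the 6, at 89.3 for SLC34A3 and 84 for SLC37A2.

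For HRAS N116Y minus LacZ, 4 members were higher and 2 lower (2.5% and 1.25%, against 2.35% and 1.95% of all genes). SLC27A2, a very long chain acyl-CoA synthetase of the fatty acid transport family, was at 143, 628 and 150.0 with TGF-beta3, against 325, 407 and 444 without it. Its signal was thus higher with TGF-beta3 for HRAS N116Y and lower for the other 2 vectors, with log2 ratios of -1.18 in HRAS G12V cells, 0.63 in HRAS N116Y cells and -1.56 in LacZ cells. In the fit over the 6 arrays SLC27A2 passed in neither direction (log2 change -0.71 ± 0.31 SE, limma adjusted p = 0.106). SLC6A2 had ratios of -0.31 in HRAS G12V cells, 0.88 in HRAS N116Y cells and -0.76 in LacZ cells, and SLC45A3 of -0.13 in HRAS G12V cells, 0.82 in HRAS N116Y cells and -0.36 in LacZ cells. SLC6A11, a GABA transporter, had 0.26 in HRAS G12V cells, -0.97 in HRAS N116Y cells and 0.38 in LacZ cells, and SLC12A7, a potassium and chloride cotransporter, -0.00 in HRAS G12V cells, -0.61 in HRAS N116Y cells and 0.42 in LacZ cells. For HRAS G12V minus HRAS N116Y, 1 member was higher and 5 lower (0.625% and 3.12%, against 2.78% and 2.44% of all genes).

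**Figure D4:**
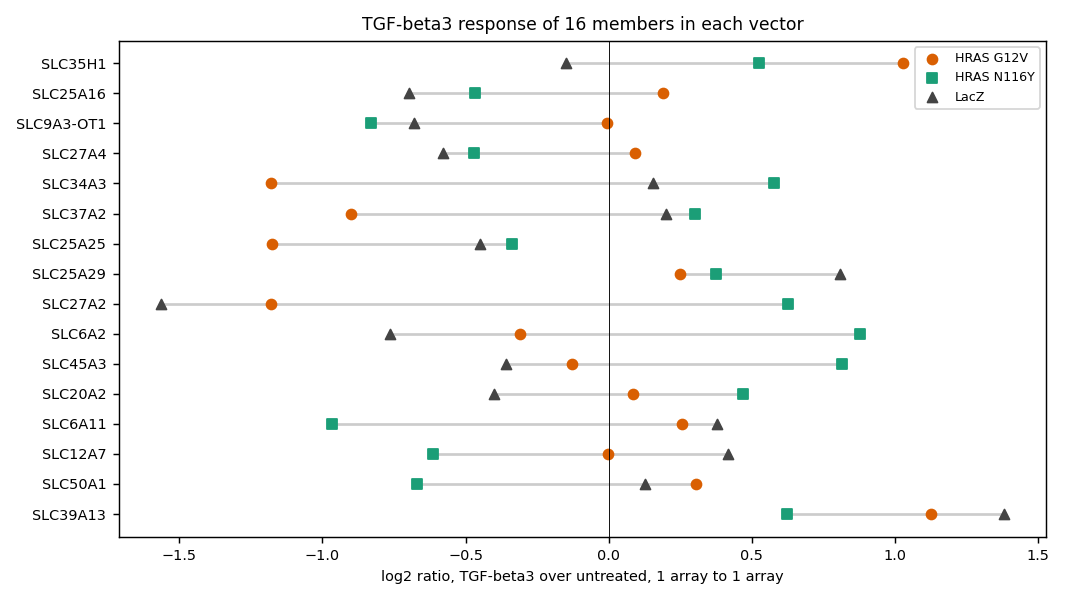
Log2 ratio of TGF-beta3 to untreated (horizontal axis, 1 array to 1 array) with HRAS G12V (circles), HRAS N116Y (squares) and LacZ (triangles) for 16 members with the largest differences between vectors, 1 row a gene. SLC27A2 spans -1.56 to 0.63, with HRAS N116Y on the other side of 0 from the other vectors; there are no replicates and no error bars.

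The siRNA pair addressed p53 in the same cells without TGF-beta3, 1 array against 1. Of 146 members with a signal of 50 on either array, 4 were at least 2-fold higher with p53 siRNA (2.74%, against 2.35% of all genes) and 11 at least 2-fold lower (7.53%, against 6.16%). The highest ratio was that of SLC6A8, at 314 with p53 siRNA and 128 with control siRNA (log2 ratio 1.30). SLC12A8 was at 74.7 with p53 siRNA and 35.7 with control siRNA, SLC39A8, an importer of zinc and manganese, at 114 with p53 siRNA and 54.9 with control siRNA, and SLC25A33, a pyrimidine nucleotide carrier, at 229 with p53 siRNA and 112 with control siRNA. SLC25A39 and SLC6A11 came close to 2-fold, with log2 ratios of 0.94 and 0.93.

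The lowest ratio was that of SLC35B4, a carrier of UDP-xylose and UDP-N-acetylglucosamine, at 29.1 with p53 siRNA and 143 with control siRNA (log2 ratio -2.29). SLC31A2 was at 76.9 with p53 siRNA and 270.4 with control siRNA (-1.81). SLC50A1, a sugar carrier of the SWEET family, was at 106 with p53 siRNA and 297 with control siRNA (-1.49). On all 3 the p53 siRNA signal was under the control by more than 2-fold. SLC29A3 was at 56.3 with p53 siRNA and 155 with control siRNA, SLC39A1, a zinc importer, at 118 with p53 siRNA and 295 with control siRNA, and SLC39A2 at 37.2 with p53 siRNA and 85.9 with control siRNA. The other 5 were SLC11A2, SLC17A5, SLC25A25-AS1, SLC30A9 and SLC35D1, with log2 ratios between -1.16 and -1.03. These are differences between 2 arrays, with no replicate check. Both arrays had high 3' to 5' actin ratios, and the part of these in the ratios was not tested.

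**Figure D5:**
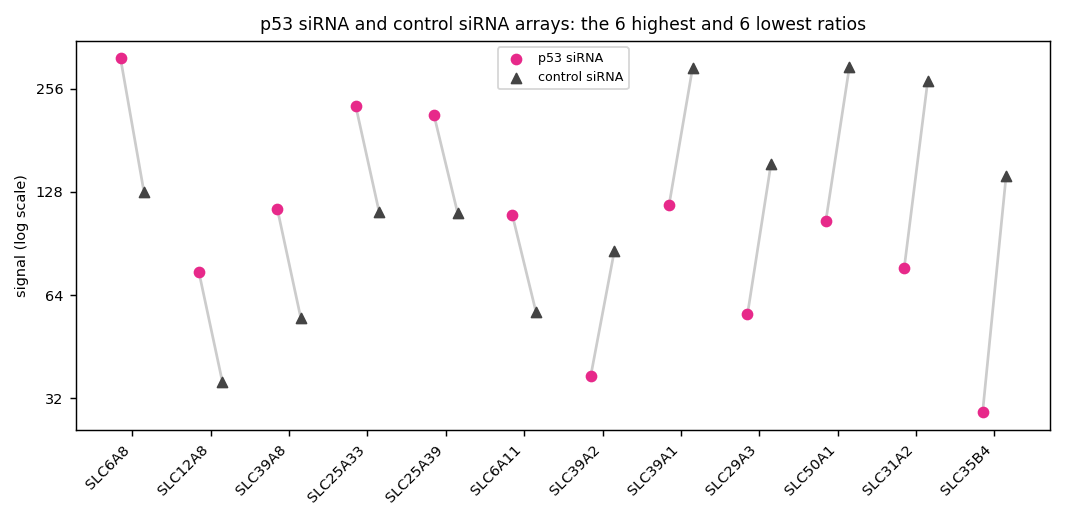
Signal (vertical axis, log scale) with p53 siRNA (circles, left of each pair) and control siRNA (triangles) for the 6 members with the highest and the 6 with the lowest ratio, 1 array each. SLC6A8 is at 314 and 128, and SLC35B4 at 29.1 and 143, with p53 siRNA given before control siRNA.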

How the data were processed

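Biotin-labelled cRNA from HaCaT cells was measured on Affymetrix arrays, 1 per sample, per the labels' protocols. The deposited values are linear intensity signals, 1 for each probe set, which the authors computed with MAS5 5.0 per the submitters' processing notes. A genome build was not given in the sources used here. Its values showed a 2% trimmed mean of about 100 on each array. Detection calls were not used here. Probe sets were named from the platform annotation, with symbols updated through RefSeq: of 54675, 41097 had 1 symbol, 1801 several and 11777 none, and 62 were controls. Of the first, 41043 matched the gene table.

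Signals were brought to a trimmed mean of 100, and those below a floor of 20 were raised to it before the log2 transform, which makes changes of dim genes smaller. An additive model of vector and TGF-beta3 was fitted to the 6 adenovirus arrays with limma 3.58.1 (R 4.3.3), for 8982 genes with a signal of 50 on 2 or more of them. The eBayes prior was trended (8.74 prior degrees of freedom, median residual SD 0.152) and p-values were Benjamini-Hochberg adjusted over all genes tested. Rises and falls are calls at an adjusted p under 0.05. Nothing says that groups came from separate cultures, so the p-values cover the spread between arrays alone, and that may be technical; precision is limited by how few arrays there are. Pairs of single arrays have log2 ratios and no test; there, at least 2-fold with a signal of 50 on 1 array was counted.

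The fit was tested on simulated data. Members, transport classes (set by family) and gene lists were chosen with earlier results of these data known. Named members are up to 15 risers and 15 fallers for TGF-beta3, up to 10 each for HRAS N116Y against LacZ, 6 each for HRAS G12V against HRAS N116Y and the siRNA pair, the 3 with the smallest p for HRAS G12V against LacZ, 4 each for differences of response, the 10 brightest and 3 in each class. Other members named were chosen after their values were seen. Alternatives were quantile normalization, floors of 10 and 50, filters, the mean of a gene's probe sets, the prior, the vector term and leaving out a vector's arrays. Promoters came from RefSeq (GRCh38.p14). Annotated coordinates of probe sets were not used here.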

Additional observations from a re-analysis of the deposited data

Results flagged for a closer look

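Members of the SLC families whose TGF-beta3 response ran in opposite directions in 2 vectors, by at least 0.5 on the log2 scale each way, were SLC27A2, SLC34A3 and SLC6A2. SLC27A2 had a log2 ratio of TGF-beta3 to untreated of -1.18 with HRAS G12V, 0.63 with HRAS N116Y and -1.56 with LacZ. SLC34A3 had -1.18 with HRAS G12V and 0.58 with HRAS N116Y. SLC6A2 had 0.88 with HRAS N116Y and -0.76 with LacZ. Each ratio is 1 array to 1 array, so the differences were not tested.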

How the results depend on the processing

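The TGF-beta3 fit pairs arrays by vector through its vector term. Of 152 recomputed counts, 108 stayed within 1.5 times of the reported count. With TGF-beta3, 25 members rose and 23 fell: leaving out 1 vector's arrays gave 13 to 32 and 13 to 34; a filter at 100 gave 15 fallers, the unpaired fit, with no vector term, 17 risers and 14 fallers, and members at 50 on all 6 arrays 15. Fitting all 19775 genes, which include genes at the floor throughout that have no variance, gave 0 calls in each comparison. Without those genes (added after seeing the data) 19 rose and 17 fell with TGF-beta3, and HRAS G12V against HRAS N116Y had 1 and 3. HRAS N116Y against LacZ still had 0 and 0 without them, and HRAS G12V against LacZ had no member called in the main fit either. For HRAS N116Y against LacZ the count of 4 higher members became 1 with quantile normalization or the mean of probe sets. It became 2 with a floor of 50, a filter at 100, no prior trend or members at 50 on all arrays. Without the HRAS G12V pair it was 7. With the mean of probe sets each of the 4 lost its call. HRAS G12V against LacZ had 1 lower without the HRAS N116Y pair. For HRAS G12V against HRAS N116Y, 4 higher became 1 with the mean of probe sets and 2 with no trend; 6 lower became 3 with a filter at 100 or members at 50 on all arrays. The mean of probe sets gave 4 higher and 5 lower with HRAS G12V, 3 higher with HRAS N116Y and 6 lower with p53 siRNA; a floor of 50 gave 5 lower with HRAS G12V. Differences of response became, with a floor of 50, 0 lower (HRAS G12V minus LacZ), 1 and 1 (HRAS N116Y minus LacZ) and 3 lower (HRAS G12V minus HRAS N116Y); with the mean of probe sets 0 and 1, 1 and 1, and 0 and 2. Where the construction above does not show it, the cause was not tested.

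Of the 30 members named for TGF-beta3, 21 passed in every alternative on 6 arrays in which they were tested, other than the fit of all genes. The other 9 were SLC2A1, SLC30A1, SLC16A9, SLC25A10, SLC25A28, SLC25A37, SLC29A3, SLC35G1 and SLC39A2. Of the 21, 18 also passed with any vector's arrays left out: SLC25A43 and SLC33A1 lost their calls without the HRAS G12V arrays (limma adjusted p = 0.0668 and 0.0603) and SLC7A8 without the LacZ arrays (0.0632). By both measures 3 of 10 passed for HRAS G12V against HRAS N116Y and 0 of 5 for HRAS N116Y against LacZ; 0 of the named members reversed. Dim members near the floor are limited by signal over background, and 1 array a group limits every value.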
